A study of Mus musculus and Rattus norvegicus with 53 samples.

Results

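Classical cadherins and their catenin partners were followed in sorted mouse Schwann cells (SCs) of intact and transected sciatic nerve. The rows of 10 genes were taken by symbol from the 24016 genes of the mouse counts: the cadherins Cdh1, Cdh2, Cdh3, Cdh6, Cdh11, Cdh13 and Cdh19, and the catenins Ctnna1, Ctnnb1 and Ctnnd1. All 10 were listed. The cells were tdTomato+ SCs, which came from mice with a Cre driver active in the neural crest and a Rosa26 tdTomato reporter, aged 6 to 8 weeks and of both sexes. The label therefore marks a lineage and not a state. Every group carried the reporter, and no group carried another allele or agent. In the first experiment, at day 6 after transection, each library held cells of 3 mice, and there were 4 libraries of intact nerve (iSCs), 4 of the distal stump (dSCs) and 4 of the bridge that forms between the stumps (bSCs). In the second, each of 35 libraries came from a single nerve: 5 held iSCs, 18 held dSCs (3 a day, on days 1 and 2 and every other day from day 4 to day 10) and 12 held bSCs (3 a day, every other day from day 4 to day 10). Intact nerves were contralateral to a transected one, and not taken from uninjured animals.

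Classical cadherins are single-pass membrane proteins that bind a cadherin of a neighbouring cell through their extracellular repeats. Their cytoplasmic tail holds β-catenin (Ctnnb1) and δ-catenin (Ctnnd1), and α-catenin (Ctnna1) links this complex to actin. Cdh13 has no such tail and is only grouped with them here. β-catenin also acts in the nucleus with TCF factors. In nerve, E-cadherin (Cdh1) is known from the autotypic junctions of myelinating SCs, at paranodes and Schmidt-Lanterman incisures, N-cadherin (Cdh2) from contacts of SCs with axons and with each other, and Cdh19 from SCs and their precursors. In the mm9 annotation, Cdh1, Cdh3, Cdh11 and Cdh13 lie on chromosome 8, Cdh6 on 15, Cdh19 on 1, Ctnnb1 on 9, Ctnnd1 on 2, and Cdh2 and Ctnna1 on 18. Cdh3 (start 109034791, end 109080808) and Cdh1 (start 109127251, end 109194146) are neighbours on the plus strand. Of the exon bases of the 10 genes, only 240 of Ctnnb1, or 4.71%, were shared with another gene (Ulk4).

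Libraries held between 11435463 and 22617054 gene counts in pooled nerves and between 9240883 and 22426128 in single nerves. The Schwann cell markers Sox10, S100b, Erbb3 and Ngfr had counts in every library, except that Erbb3 was at 0 in at least 1 library of dSC day 1. In CPM (read counts relative to the TMM-scaled library size), Sox10 stood at 219.9 to 422.2 in pooled iSCs, 69.07 to 181.8 in pooled dSCs and 63.01 to 218.7 in bSCs, and Ngfr at 92.55 to 230.8, 570.8 to 1801 and 350.6 to 899.2. Macrophage markers (7 genes) summed to between 157 and 4300 CPM in pooled iSCs between 7990 and 13100 in dSCs and between 2010 and 5810 in bSCs, and fibroblast markers (6 genes) to between 6150 and 29100, between 16100 and 25600, and between 1270 and 5360 CPM in pooled iSCs, dSCs and bSCs. The share of these transcripts in any result below was not tested, and in bulk libraries fewer cells of a type and less RNA per cell cannot be told apart. In single nerves, 4 libraries stood apart (iSC replicates 0 and 1, dSC day 1 replicate 1 and dSC day 2 replicate 0): their TMM factors, which scale each library to the others, were between 0.459 and 0.783, and they held between 10042 and 11138 detected genes. The single-nerve contrasts of dSC days 4 to 10 are given without them too for Cdh1, Cdh2, Cdh11, Cdh13 and Cdh19. The genes of the lists below, the differences of single days, the tests by day and the correlations across libraries are given with all 35 libraries.

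Cdh19 was the most abundant of these cadherins per base of transcript in pooled iSCs, at a level of 165.1 ± 82 CPM per kb (SD, n = 4). Cdh1 (20.99 ± 7.416), Cdh2 (17.28 ± 7.837) and Cdh11 (10.11 ± 2.451 CPM per kb) followed, and Cdh6, Cdh13 and Cdh3 were between 2.018 and 2.83. Cdh1 and Cdh2 did not differ beyond their spread, and neither did the lowest 3. Of the catenins, Ctnna1 stood at 135.2 ± 43.72, Ctnnb1 at 41.76 ± 10.52 and Ctnnd1 at 17.14 ± 8.195 CPM per kb. Cdh19 therefore made up 72.4% ± 8.1 of the summed level of the 7 cadherins in iSCs, and Cdh1 10.1% ± 2.28. At day 6 Cdh1 was 0.0159% ± 0.0195 of the sum in dSCs and 0.837% ± 1.36 in bSCs, and Cdh11 had gone from 6.1% ± 5.22 in iSCs to 19.4% ± 8.39 in dSCs and 26.2% ± 18.3 in bSCs. The sum itself was 220 ± 94.8 CPM per kb in iSCs, 98.2 ± 34.1 in dSCs and 98.5 ± 16.2 in bSCs. These shares are descriptions and were not tested.

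**Figure D1:**
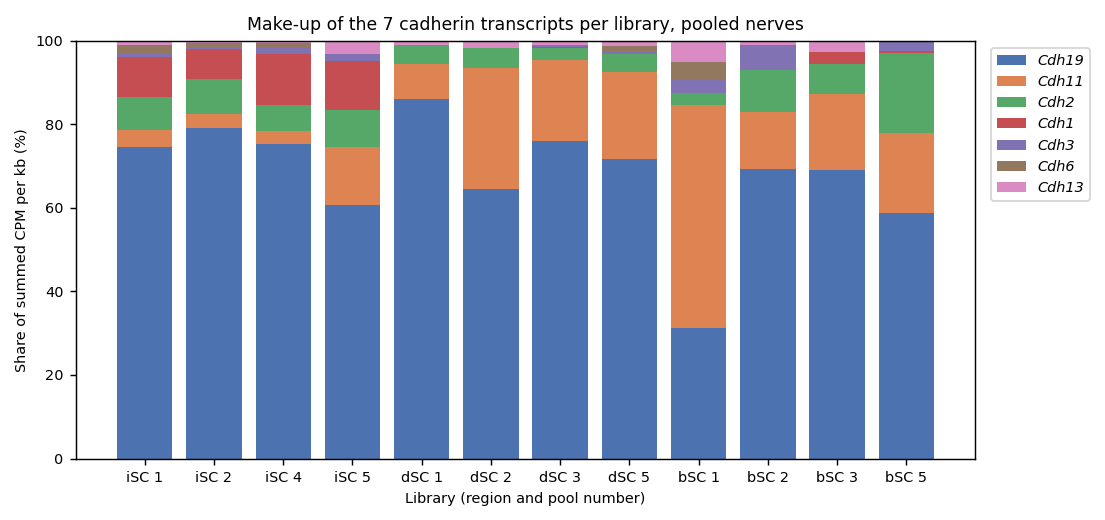
Stacked bars give, for each pooled-nerve library, the share (%) of each cadherin in the summed CPM per kb of the 7 cadherins, in iSCs, dSCs and bSCs. Cdh19 (bottom) is the largest part in iSC and dSC libraries, at mean shares of 72.4% and 74.6%, the Cdh1 part is visible in the iSC bars and almost absent in dSC bars, and Cdh11 is largest in bSC library 1.

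E-cadherin was the member with the largest change at day 6. Cdh1 stood at 97.63, 105.4, 131.1 and 49.85 CPM in iSC pools 1, 2, 4 and 5, at 0, 0.1345, 0.1477 and 0 CPM in dSC pools 1, 2, 3 and 5, and at 0, 0, 13.23 and 2.145 CPM in the bSC pools of the same numbers. Every injured library lay below every intact one. The groups of 17% of all tested genes did not overlap in dSCs against iSCs, and of 25% in bSCs against iSCs. Summed over libraries there were 5674 counts in iSCs, 4 in dSCs and 200 in bSCs, so that the level in iSCs was 1340 times (95% exact Poisson interval 523 to 4920) that of dSCs and 33.7 times (29.3 to 39) that of bSCs. These intervals cover counting error only. In edgeR's quasi-likelihood test across 13751 genes, Cdh1 fell by 10.22 on the log2 scale in dSCs (SE 1.92, adjusted p = 0.00872) and by 4.66 in bSCs (SE 1.43, adjusted p = 0.0441). The bSCs against dSCs log2 difference of 5.57 (SE 1.70) did not pass (adjusted p = 0.0725). The fall in dSCs kept its call without each of the 12 libraries, while the fall in bSCs kept it without 3 of them (bSC pools 1 and 3 and dSC pool 1) and lost it without the other 9 (adjusted p from 0.00802 to 0.0952). Without bSC pool 3, the library with 13.23 CPM, the log2 difference in bSCs was -7.02, and with the pool block it was -7.73 (adjusted p = 0.0455). Epithelial markers (Epcam, Krt5, Krt14, Krt8 and Krt18), of another cell type that makes Cdh1, summed to at most 2.03 CPM in any pooled iSC library. They reached at most 6.27 CPM in dSC and 9.19 CPM in bSC libraries. Their part in the level of Cdh1 was not tested.

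Across all tested genes, 5.32% were called in dSCs against iSCs, 14.7% in bSCs against iSCs and 5.43% in bSCs against dSCs, at an adjusted p under 0.05. The first 2 comparisons share the iSC libraries. Libraries of different regions with the same pool number carry the same animal label, and with the pool as a replicate block 287, 968 and 236 genes were called in place of 732, 2022 and 746, and 1, 1 and 0 members (Cdh1 in both comparisons with iSCs). Called lower and higher were 2.69% and 2.63% of genes in dSCs against iSCs, and 7.46% and 7.24% in bSCs against iSCs. Of the 10 members, 2 were called lower and 0 higher in dSCs against iSCs, 2 lower and 1 higher in bSCs against iSCs, and 0 in bSCs against dSCs. In that last comparison 2 of the members had an unadjusted p under 0.05 by edgeR, as did 21.5% of all tested genes. DESeq2 called 1 member there (Cdh1) and 1939 of 13751 genes. The median log2 difference of the members was -0.989, -0.306 and 0.844, against -0.023, -0.156 and -0.073 of all genes, in the same order.

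N-cadherin was the second member called in dSCs. Cdh2 stood at 146.3, 220.7, 121.9 and 68.48 CPM in iSC pools 1, 2, 4 and 5, at 42.69, 27.71, 32.57 and 23.35 CPM in the dSC pools, and at 27.81, 64.52, 58.69 and 141 CPM in the bSC pools. The dSC libraries were all below the iSC libraries, whereas the bSC libraries overlapped both. In dSCs against iSCs, the groups of 17% of all tested genes did not overlap. Cdh2 fell by 2.14 on the log2 scale in dSCs (SE 0.47, adjusted p = 0.0204), and was at a log2 difference of -0.93 in bSCs against iSCs (SE 0.46, adjusted p = 0.202) and of 1.21 in bSCs against dSCs (SE 0.46, adjusted p = 0.137). The call in dSCs was lost without iSC pool 1 or 2 or dSC pool 2 or 5, with adjusted p from 0.057 to 0.0715, and with the pool as a replicate block (log2 difference of -2.13, adjusted p = 0.139). The log2 difference stayed between -2.34 and -1.80 over the 12 fits. In the same comparison Sox10 and Erbb3, markers of the SC lineage, were at log2 differences of -1.46 and -2.12 (adjusted p = 0.0471 and 0.0454). P-cadherin (Cdh3), the type I neighbour of Cdh1 on chromosome 8, was low throughout: 5.952 to 12.72 CPM in iSCs, 0 to 2.807 in dSCs and 0 to 19.46 in bSCs. Its dSC libraries did not overlap the iSC libraries, but the log2 difference of -3.08 (SE 1.75) did not pass (adjusted p = 0.444).

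**Figure D2:**
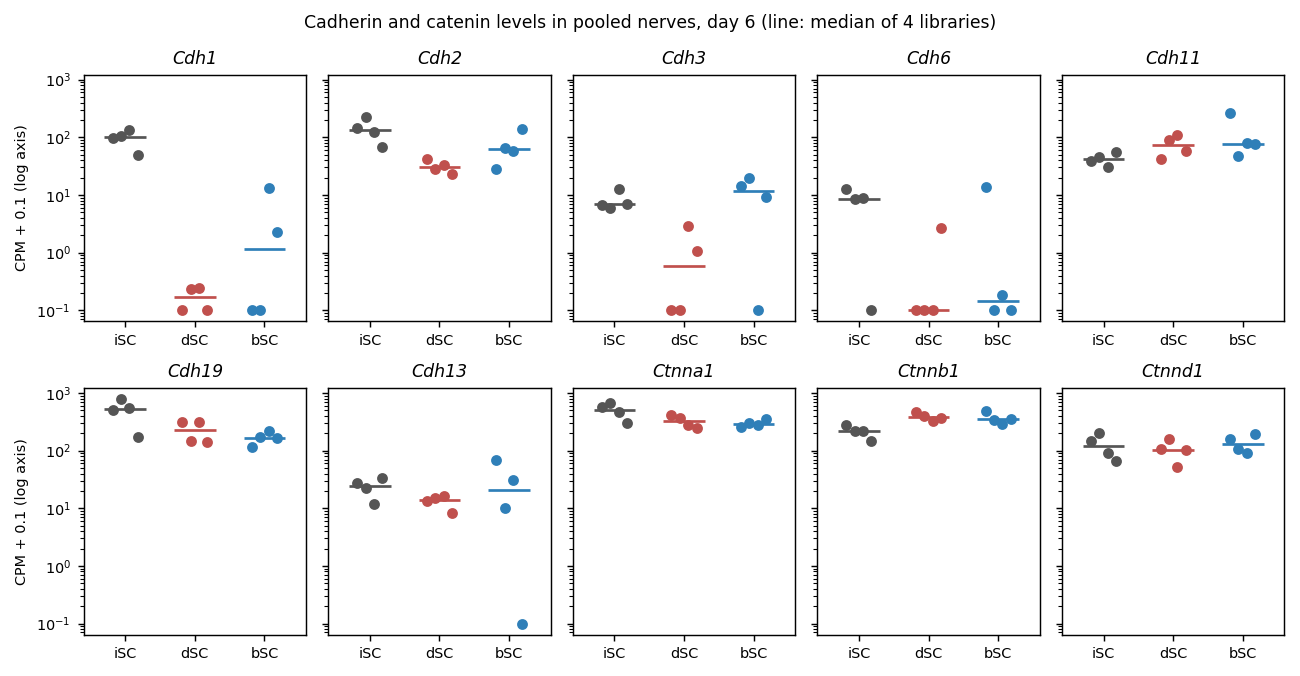
Each panel gives 1 gene in pooled nerves at day 6. Points are libraries, in CPM + 0.1 on a log axis, with a line at the median of the 4 libraries of iSCs, dSCs and bSCs. Cdh1 is near 100 CPM in iSCs and at 0.1477 CPM or less in dSCs, while Ctnna1 and Ctnnb1 stay above 100 CPM in every library.

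Of the type II cadherins, which differ from type I in how their first repeat binds, Cdh19 was called in bSCs. It stood at 513.8, 782.6, 546.1 and 174.5 CPM in the iSC pools, at 310.1, 145.3, 315.8 and 142.9 CPM in the dSC pools and at 113.8, 171, 214.8 and 165.2 CPM in the bSC pools. The ranges overlapped through iSC pool 5, which was the lowest iSC library. Cdh19 fell by 1.60 on the log2 scale in bSCs (SE 0.42, adjusted p = 0.0219) and was at a log2 difference of -1.14 in dSCs (SE 0.42, adjusted p = 0.159). The bSC call was lost without iSC pool 1 or 2 or bSC pool 1 or 5 (adjusted p from 0.0505 to 0.0719) and with the pool block (log2 difference of -1.54, adjusted p = 0.0903). Cdh19 was called in dSCs only without iSC pool 5 (adjusted p = 0.0252, with 0.0252 to 0.449 over all alternatives). Cdh11, known from mesenchymal cells, stood at 30.67 to 55.09 CPM in iSCs and at 42.31 to 110.4 in dSCs. In bSCs it was 267.9 CPM in pool 1 and between 46.52 and 78.72 in the other 3. Its log2 difference in bSCs against iSCs of 1.46 (SE 0.50) did not pass by edgeR (adjusted p = 0.0668) and passed by DESeq2 (adjusted p = 0.0307). Without bSC pool 1, the bSCs against dSCs difference of Cdh11 turned from 0.64 to -0.19. Cdh6 was at 0 to 12.79 CPM in iSCs, at 0 except in dSC pool 5 (2.611 CPM) and at most 0.08594 CPM in bSCs except in pool 1 (13.77 CPM). Cdh13 is not a type II cadherin: it lacks a cytoplasmic tail and is held by a lipid anchor. It was at 11.74 to 33.31 CPM in iSCs, 8.28 to 16.1 in dSCs and 0 to 67.36 in bSCs, and was not called.

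The catenins were expressed in every library. Ctnnb1 stood at 275.2, 217.3, 215.2 and 144.1 CPM in the iSC pools, 469.8, 399.8, 320 and 374.4 CPM in the dSC pools and 485, 343.6, 285.6 and 352.7 CPM in the bSC pools. All injured libraries were above all iSC libraries. The groups of 17% of all tested genes did not overlap in dSCs against iSCs, and of 25% in bSCs against iSCs. Ctnnb1 rose by 0.78 on the log2 scale in bSCs (SE 0.25, adjusted p = 0.0487), and its log2 difference of 0.88 in dSCs (SE 0.25) did not pass by edgeR (adjusted p = 0.0586) and passed by DESeq2 (adjusted p = 0.0121). The bSC call was close to the threshold: it was lost in 10 of the 12 fits without a library (all but those without iSC pool 1 or bSC pool 3) and in 5 of 6 other alternatives, the pool block among them (log2 difference of 0.91, adjusted p = 0.0526), with adjusted p from 0.0217 to 0.127 over all of them, and the difference stayed above 0. Ctnna1 was at 297.9 to 677.9 CPM in iSCs, 249.7 to 419.1 in dSCs and 252.4 to 354.7 in bSCs, with log2 differences of -0.60 (adjusted p = 0.281) and -0.75 (adjusted p = 0.0831) by edgeR, while DESeq2 called the bSC difference. Ctnnd1 was at 65.17 to 199.6, 52.44 to 156.5 and 92.12 to 193.9 CPM in iSCs, dSCs and bSCs, with log2 differences of -0.28 and 0.13 (adjusted p = 0.856 and 0.875).

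**Figure D3:**
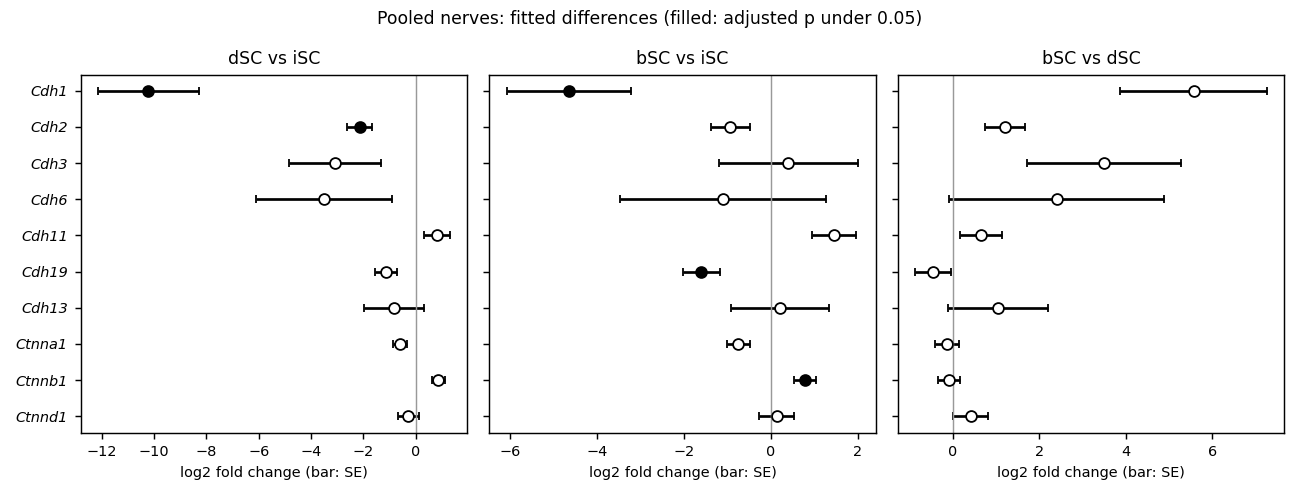
Points give the fitted log2 fold change of each member in the 3 pooled comparisons, with bars of 1 SE, and filled points have an adjusted p under 0.05. Cdh1 and Cdh2 are filled on the left panel, Cdh1, Cdh19 and Ctnnb1 on the middle panel, and none on the right panel.

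Genes that work with the members were taken from fixed lists. The list genes are given without the pool block, so whether it keeps their calls is not shown. Across all genes, 5.32% were called in dSCs against iSCs, 14.7% in bSCs against iSCs and 5.43% in bSCs against dSCs. Of 19 adherens junction partners 17 were tested. Arvcf, a δ-catenin relative, fell in dSCs (log2 -2.39, SE 0.58, adjusted p = 0.0304) and in bSCs (log2 -3.47, SE 0.61, adjusted p = 0.00224). In bSCs against iSCs, Jup (plakoglobin, a β-catenin relative) fell by 1.41 on the log2 scale (SE 0.42, adjusted p = 0.0394) and Ctnnal1 by 3.46 (SE 1.07, adjusted p = 0.0451), while Actn4, an actin crosslinker, rose by 1.52 (SE 0.34, adjusted p = 0.00871). Actn4 was also the 1 partner called in bSCs against dSCs, at a log2 difference of 1.56 (SE 0.34, adjusted p = 0.0201). The list median was -0.037, -0.393 and -0.203 in dSCs against iSCs, bSCs against iSCs and bSCs against dSCs. None of the 8 genes of β-catenin turnover was called in any pooled comparison by edgeR. In single nerves 12 of the partners were tested, with all 35 libraries only. Across all genes, 9.61% were called there in dSC days 4 to 10 against iSCs and 10.1% in bSCs against iSCs. Ctnnal1, Jup and Tjp1 fell in dSC days 4 to 10 against iSCs (log2 -1.97, -1.57 and -1.42, adjusted p = 0.0238, 0.00406 and 0.00469), and Jup and Tjp1 in bSCs (log2 -1.19 and -1.63, adjusted p = 0.0268 and 0.00117). Of 6 turnover genes tested there, Ctnnbip1, an inhibitor of β-catenin binding to TCF, fell in dSCs (log2 -1.01, adjusted p = 0.0219). Of 10 β-catenin/TCF targets 7 were tested in pooled nerves, and none was called higher. Few genes were called higher at all: 2.63% in dSCs against iSCs and 7.24% in bSCs against iSCs, with 2.69% and 7.46% called lower. Znrf3 fell in dSCs and in bSCs (log2 -1.62 and -1.11, adjusted p = 0.0185 and 0.0468), Lgr5 in dSCs (log2 -3.27, adjusted p = 0.0464), and Axin2 in bSCs (log2 -6.33, adjusted p = 0.0241), where its highest library was at 0.1866 CPM against 2.424 to 6.104 CPM in iSCs. Of 12 other classical cadherins 4 were tested and none was called.

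In single nerves the study's count minimum, at least 100 counts in at least 85% of libraries, kept 7171 genes and 7 members. Cdh1, Cdh3 and Cdh6 were not among them and were tested with edgeR's own filter, which kept 15519 genes. Cdh1 stood at 3.568, 32.19, 7.485, 55.91 and 12.59 CPM in the 5 iSC libraries. In dSCs it stood at 14.96, 8.678 and 37.33 CPM at day 1 and at 0, 20.14 and 38.69 CPM at day 2, the 0 being one of the libraries that stood apart. From day 4 on, all 3 libraries of day 4 had 0 counts, day 6 had 0, 0 and 0.05416 CPM, day 8 had 1.726, 5.8 and 0 CPM, and day 10 had 0, 3.165 and 0 CPM. Thus 5 of 5 iSC libraries and 5 of 6 of dSC days 1 and 2 had more than 1 CPM, against 3 of 12 of dSC days 4 to 10 and 3 of 12 of bSCs. In bSCs, 7 of 12 libraries had 0 counts and the highest was 22.11 CPM, at day 6. A library with 0 counts allows a level of 3 counts, which was 0.646 CPM in the day 2 library that stood apart and at most 0.321 CPM in the others at 0. The first letter of the animal code in the file labels, a possible batch, was A, B or C. Within letter A, Cdh1 was at 3.57 to 32.2 CPM in iSCs, 0 to 37.3 in dSC days 1 and 2, and 0 to 3.17 in dSC days 4 to 10, and within letter C at 7.48 to 55.9, 20.1 to 38.7 and 0 to 0.0542 CPM. Letter B held neither iSCs nor dSCs of days 1 and 2. Epithelial markers summed to between 0 and 48.5 CPM in single iSCs, through Krt18 and Epcam, with Krt5 and Krt14 at 0, and their part in the level of Cdh1 was not tested.

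With edgeR's filter, Cdh1 fell by 7.04 on the log2 scale in dSC days 4 to 10 against iSCs (SE 1.58, adjusted p = 0.00857, 5.32% of genes called) and by 4.89 in bSCs (SE 1.45, adjusted p = 0.0330, 9.34% called). Without the 4 libraries that stood apart, it fell by 7.21 (adjusted p = 0.0151, 3.21% called) and 5.06 (adjusted p = 0.0424, 7.41% called). Against iSCs, the log2 difference was -0.10 at day 1 and -0.13 at day 2 (SE 2.02 for both). The test of any day dependence in dSCs did not pass for Cdh1 (adjusted p = 0.531 by edgeR). A contrast of dSC days 4 to 10 against days 1 and 2, chosen after the values were seen, gave a log2 difference of -6.92 (SE 1.55, adjusted p = 0.0210, 2.24% of genes called), and -7.42 (adjusted p = 0.0391, 0.275% called) without the 4 libraries. It is a description of a pattern seen in these libraries and not an independent test.

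In edgeR's fit of all 35 libraries by region and day, none of the 7 members that passed the study's filter was called against iSCs, between bSCs and dSCs, or by day, where 9.61% of genes were called in dSC days 4 to 10 against iSCs, 10.1% in bSCs against iSCs and 0.112% in bSCs against dSCs. Day by day against iSCs, 0.153%, 1%, 4.74%, 1.62%, 0.711% and 0.683% of genes were called in dSCs from day 1 to day 10, and 4.06%, 3.54%, 0.683% and 2.52% in bSCs from day 4 to day 10. The day within dSCs called 0.237%, and the change of bSCs minus dSCs with the day called 0%. In the comparisons over days 4 to 10, in the order given, 2, 1 and 0 members had an unadjusted p under 0.05 by edgeR. Of all tested genes 23.9%, 23.9% and 7.13% did. DESeq2 called 1, 0 and 0 members, and 994, 1038 and 64 of 7171 genes. The 1 was Cdh2, at a log2 difference of -1.33 by edgeR (SE 0.48, adjusted p = 0.0756, with 0.0307 to 0.41 over the alternatives). Cdh2 stood at 147.2, 83.97, 37.13, 127.6 and 23.09 CPM in iSCs, had a median of 17.3 CPM (range 1.72 to 22.7) in dSC days 1 and 2, 35.6 CPM (3.04 to 65.3) in dSC days 4 to 10, and 51.4 CPM (20.1 to 106) in bSCs. The highest of the early dSC libraries was close to the lowest iSC library, and the later dSC libraries overlapped the iSC libraries. Without the 4 libraries, with edgeR's filter, the log2 difference was -0.82 (SE 0.52, adjusted p = 0.484).

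Cdh11 and Cdh19 were low at days 1 and 2 in dSCs and higher from day 4. Cdh11 had a median of 38.6 CPM (14.4 to 58.6) over the 6 libraries of days 1 and 2 and 118 CPM (76.8 to 233) over the 12 of days 4 to 10, and Cdh19 84.6 (35.8 to 102) and 260 CPM (104 to 458). For both genes every later library was above every earlier one. The 2 sets of libraries did not overlap, in either direction, for 1.26% of the tested genes. This held within letters A and C of the animal code for Cdh11 (14.4 to 58.6 against 76.8 to 233 CPM, and 27.4 to 49.4 against 111 to 155 CPM) and for Cdh19 (35.8 to 92 against 104 to 348 CPM, and 101 to 102 against 168 to 383 CPM). The test of any day dependence did not pass for either (adjusted p = 0.373 and 0.591). The same contrast of later against earlier days, chosen after the values were seen, gave log2 differences of 1.73 for Cdh11 (SE 0.43, adjusted p = 0.0190) and 1.72 for Cdh19 (SE 0.54, adjusted p = 0.0523), with 6.62% of genes called. Without the 4 libraries, with edgeR's filter, these were 1.51 (adjusted p = 0.177) and 1.53 (adjusted p = 0.379). In iSCs of single nerves Cdh11 was at 23.7 to 199 CPM and Cdh19 at 27.1 to 269 CPM. The latter is a lower range than the 174.5 to 782.6 CPM of pooled iSCs, which were normalized separately, and the log2 difference of Cdh19 in dSCs against iSCs was 0.86 in single nerves (days 4 to 10, SE 0.56, adjusted p = 0.369) and -1.14 in pooled ones. These values are set side by side and their difference was not tested.

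**Figure D4:**
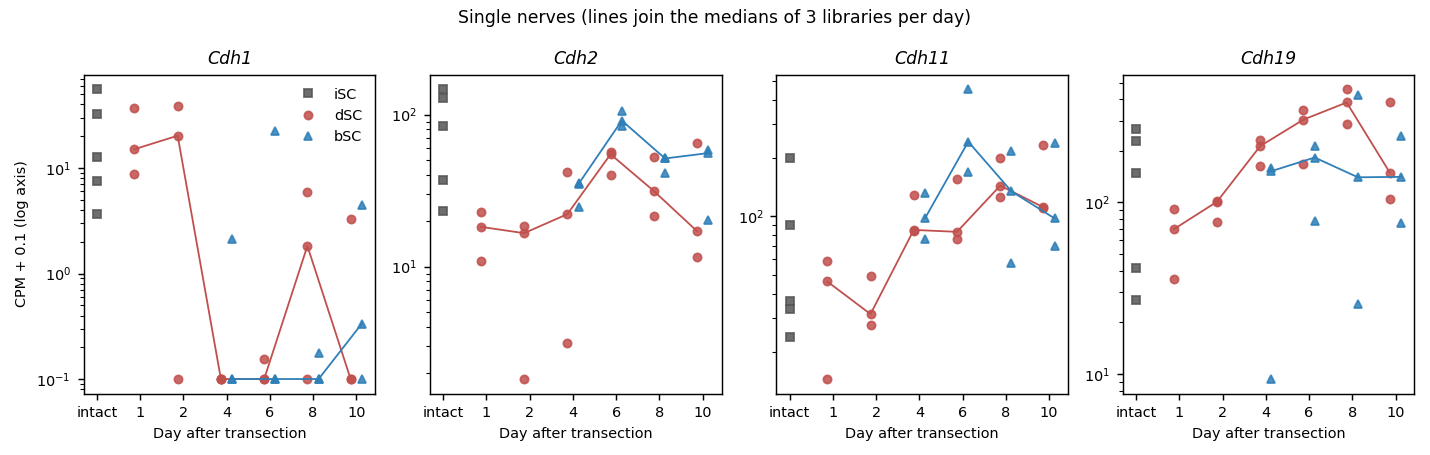
CPM + 0.1 (log axis) of Cdh1, Cdh2, Cdh11 and Cdh19 in each single-nerve library against the day after transection, for iSCs (squares), dSCs (circles) and bSCs (triangles), with lines through the medians. Cdh1 is present in iSCs and at days 1 and 2, with 1 exception, and near 0 in most libraries from day 4, whereas Cdh11 and Cdh19 are higher in dSCs from day 4 than at days 1 and 2.

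Of the other members in single nerves, Cdh13 was at 0 to 352 CPM in iSCs and at 15.8 to 150 CPM in dSC days 4 to 10. Endothelial markers (6 genes) summed to between 1540 and 3700 CPM in single iSCs and between 124 and 565 CPM in pooled iSCs. Over the 35 libraries the genes most like Cdh13 were Ece1, Pecam1 and Plvap (Spearman's rho of 0.939, 0.934 and 0.934), named after the values were seen. Ctnnb1 was at 174 to 322 CPM in dSC days 1 and 2 and at 307 to 748 CPM at days 4 to 10, and Ctnnd1 at 3.88 to 99 and 44.6 to 174 CPM. Without the 4 libraries Cdh13 was called in dSC days 4 to 10 against iSCs, at a log2 difference of -2.41 with edgeR's filter (SE 0.58, adjusted p = 0.0202, 3.21% called). The iSC libraries left in that fit were all of letter C of the animal code, so region and letter cannot be told apart in it. Within letter A, Cdh13 was at 0 to 16.4 CPM in iSCs and at 17.2 to 150 CPM in dSC days 4 to 10. Within letter C it was at 181 to 352 and at 37.5 to 83.8 CPM.

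In 10 animals a bSC and a dSC library of the same nerve could be set against each other. Cdh2 was higher in bSCs in 8 of 10 animals, with a mean log2 difference of 0.857 ± 0.956 (SD), Ctnnd1 in 8 of 10 (0.467 ± 0.606) and Cdh11 in 7 of 10 (0.431 ± 1.075), while Cdh19 was lower in 8 of 10 (-1.301 ± 1.532). Ctnnb1 was higher in 5 and lower in 5. The fit with the animal as a replicate block called 416 of 7171 genes, against 8 without it. It weighted the days equally, and day 10 held only 1 animal, which thus weighed as much as all animals of another day. With a day 10 animal whose labels disagree added, 54 genes were called. Without that animal, the log2 difference of bSCs against dSCs was 1.04 for Cdh2 (SE 0.41, adjusted p = 0.166) and 0.89 for Cdh13 (SE 0.35, adjusted p = 0.168). For Cdh19 it was -1.17 (SE 0.51, adjusted p = 0.222), and no member was called. The test of whether bSCs minus dSCs changed with the day was not passed by any of the 7 members (adjusted p = 1 for each without the animal block).

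**Figure D5:**
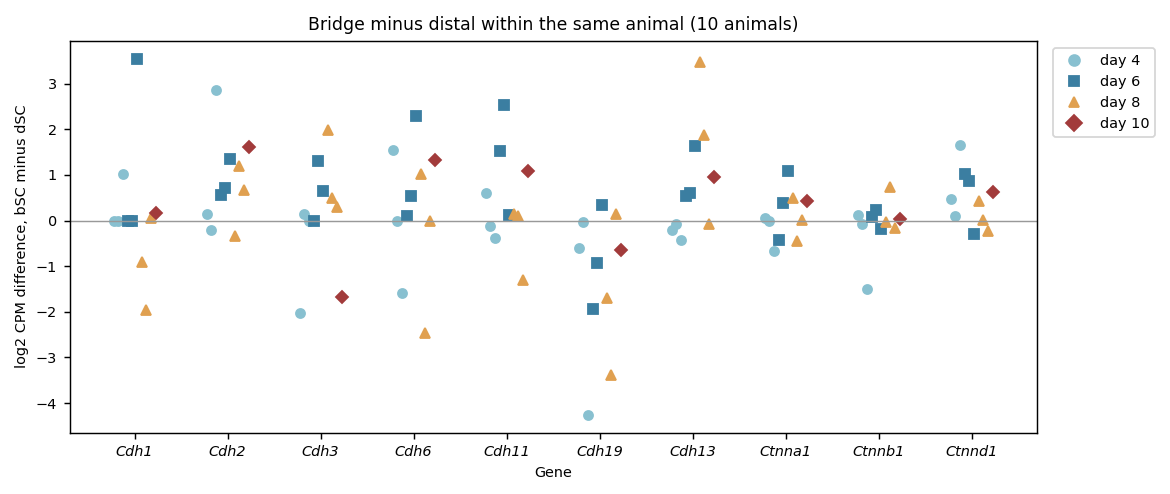
Each point is 1 of 10 animals and gives log2 CPM (with 2 added to each value) of bSCs minus that of dSCs, by gene, with the marker and colour giving the day. Cdh2 and Ctnnd1 lie above 0 in 8 of 10 animals and Cdh19 below 0 in 8 of 10.

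Across the 35 single-nerve libraries, the 3 genes whose log2 CPM ran most like that of a member were Hspb1 (0.73), Pmp22 (0.717) and Slc9a3r2 (0.693) for Cdh1, Itga6 (0.657), Slc38a2 (0.615) and Ptn (0.596) for Cdh2, Maged1 (0.832), Pxdn (0.813) and Nedd4 (0.807) for Cdh11, and Ank3 (0.792), Aspa (0.789) and Ngfr (0.771) for Cdh19, as Spearman's rho among 7171 genes. Pmp22 encodes a compact myelin protein and Ngfr the low-affinity neurotrophin receptor. The libraries share days, regions and depth, so these values are descriptions.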

How the data were processed

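The authors aligned Smart-seq2 reads with TopHat2 2.0.11 to mouse mm9 and deposited raw HTSeq read counts per gene, without normalization or filtering; Smart-seq2 does not mark strand. Lanes of a library were summed, and HTSeq categories and 92 ERCC spike-ins were set aside. The 12 pooled and 35 single-nerve libraries were analysed, while the rat libraries were not used here. Reads of PCR-amplified cDNA are not independent molecules. CPM were scaled by TMM factors, and CPM per kb used exon lengths of GENCODE vM1. Genes were tested with edgeR 4.0.16 in R 4.3.3 (quasi-likelihood test, 1 fit per experiment, Benjamini-Hochberg adjustment over all tested genes), with DESeq2 1.42.0 as an alternative. Single-nerve genes had at least 100 counts in at least 85% of libraries, the minimum in the study's methods, here over all 5 intact nerves; the study first removed datasets and kept 4 intact nerves. The scripts were tested on simulated data.

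The members and the lists were chosen with earlier results of these data known. All 10 members were named, and of the lists each gene called in a pooled comparison could be. Tjp1 and Ctnnbip1, called in single nerves and in no pooled comparison by edgeR, were named outside this rule, after their results were seen. Alternatives were DESeq2, its size factors in edgeR, other filters on low counts, fits of only the regions compared, lane and animal-code covariates, replicate blocks, and leaving out each library. Added after seeing the data were the fits without 4 single-nerve libraries with a TMM factor under 0.8, the contrast of dSC days 4 to 10 against days 1 and 2, and 2 further animal blocks. The labels give the animal of each single-nerve library. For 10 animals with both regions the correlation of their deviations from group means averaged 0.155, against -0.0689 for other animals. An animal whose labels disagree was left out. Pooled libraries of different regions share animal labels (numbers 1, 2 and 5 in all regions, 3 in dSCs and bSCs, 4 in iSCs alone), so the pool number pairs them, although same-numbered deviations correlated at only -0.0143 on average over 10 pairs. The study's design had no block. Blocked values stand beside the member calls they change (Cdh2, Cdh19 and Ctnnb1). List and marker genes are given without the block. Epithelial and skeletal muscle markers had no gene tested.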

Additional observations from a re-analysis of the deposited data

Results flagged for a closer look

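In 40 groups of 4 or 5 libraries (each member in each pooled group and in single iSCs), 5 libraries lay far from the others of their group by Dixon's ratio of gap to range. Chance flags about 1 group in 20 where values are normally distributed, which CPM with zeros are not, so this rate is only a guide. All 5 were the highest of their group. Where all other libraries are at 0, as for Cdh6 in dSCs, any count is flagged. Cdh1 was 13.23 CPM in bSC pool 3, against 0 to 2.145 CPM in the other bSC pools. Cdh3 was 12.72 CPM in iSC pool 4, against 5.952 to 6.937 CPM. Cdh6 was 13.77 CPM in bSC pool 1, against at most 0.08594 CPM, and 2.611 CPM in dSC pool 5, against 0 in the other 3. Cdh11 was 267.9 CPM in bSC pool 1, against 46.52 to 78.72 CPM.

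Within animals, Cdh13 was lower in bSCs than in dSCs in all 3 animals of day 4 (log2 differences of -0.43, -0.2 and -0.08) and higher in all 3 of day 6 (0.54, 0.6 and 1.64), a mean difference of 1.163 between the days. This contrast between the days was not tested by itself, and the test of any change with the day did not pass for Cdh13 by edgeR, with the animal as a block (adjusted p = 0.682) or without it (adjusted p = 1).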

How the results depend on the processing

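Each of the 5 called member differences kept its direction in 12 fits without a library and 6 other alternatives, 90 values in all. These fits share most of their libraries. In bSCs against iSCs, DESeq2 called 5 members (Cdh11 and Ctnna1 were added), and the fit of only the 2 regions (Cdh19) and the pool block (Cdh1) called 1 each, against 3; in dSCs against iSCs the block called 1 (Cdh1) and DESeq2 3 (Ctnnb1 was added), against 2; in bSCs against dSCs DESeq2 called 1 (Cdh1), against 0. In single nerves, where the main count was 0, DESeq2, both looser filters and the fit without the 4 libraries of low TMM factor each called 1 in dSC days 4 to 10 against iSCs (Cdh2, Cdh1 and Cdh13 in that order), and both looser filters called 1 in bSCs (Cdh1), since they let Cdh1 enter. Day by day against iSCs, DESeq2 made 3 calls (Cdh2 in dSCs at days 2 and 4, Cdh11 in bSCs at day 6). The animal-code covariate gave 1 (Cdh11 in bSCs at day 6) and the fit without the 4 libraries 4 (Cdh13 and Ctnna1 in both regions at day 4). In that last fit the iSCs were all of letter C and the day 4 libraries all of letter A. The shares of all genes called by day in these settings are not given here, so these calls cannot be set against them. The contrast of late against early dSCs called 1, or 2 with edgeR's filter. Leaving out 1 library gave 1 to 3 members for dSCs against iSCs, 0 to 3 for bSCs against iSCs, 0 to 1 for bSCs against dSCs, and in single nerves 0 to 2 in dSCs, 0 to 1 in bSCs and 0 to 1 day by day. The cause was not tested.

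The replicate block by pool, which the animal labels pair, called 287, 968 and 236 genes in the 3 pooled comparisons, against 732, 2022 and 746. DESeq2 called 1393, 3114 and 1939. The animal block, in single nerves, changed the call of no member; with the doubtful day 10 pair it called 54 genes, and with edgeR's filter 203. In single nerves, DESeq2 called 64 genes in bSCs against dSCs and 260 by day in dSCs, against 8 and 17; the looser filters called 1449 and 1573 in bSCs against iSCs, against 723. Without 1 library each, the counts of genes ran from 310 to 1007, 1318 to 2104 and 325 to 800 in the pooled comparisons, and from 380 to 885, 471 to 920 and 2 to 40 in the single-nerve ones.

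Directions turned only in differences that were not called (16 of them, lowest adjusted p = 0.14). Cdh13 in pooled bSCs against iSCs was -1.03 with the pool block, and Ctnnd1 -0.04 with the lane covariate. With the animal-code covariate, Ctnna1 was 0.707 in single dSCs and Cdh13 0.334 in single bSCs against iSCs, and Ctnna1 -0.051 in bSCs against dSCs. Without the 4 libraries, Ctnnb1 was -0.252 and Ctnnd1 -0.299 in dSCs, and Ctnna1 -0.596 and Ctnnb1 -0.327 in bSCs, against iSCs. With the animal block and edgeR's filter, Ctnnb1 was 0.025 in bSCs against dSCs. Without 1 library each, the ranges were, in pooled nerves, Ctnnd1 -0.543 to 0.081 in dSCs against iSCs; Cdh3 -0.053 to 0.871, Cdh13 -0.762 to 0.625 and Ctnnd1 -0.078 to 0.483 in bSCs against iSCs; and Cdh6 -4.282 to 8.737, Cdh11 -0.187 to 0.918 and Ctnnb1 -0.268 to 0.024 in bSCs against dSCs. In single nerves they were Ctnna1 -0.357 to 0.19 and Ctnnb1 -0.051 to 0.374 in dSCs against iSCs; Cdh19 -0.234 to 0.454, Ctnna1 -0.284 to 0.29 and Ctnnb1 -0.144 to 0.301 in bSCs against iSCs; and Ctnna1 -0.045 to 0.162 in bSCs against dSCs. Cdh3 and Cdh6 had 0 counts in at least 1 library of iSCs, early dSCs, late dSCs and bSCs in single nerves; whether depth sets these zeros was not tested.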
